A study of Rattus norvegicus with 12 samples.

Results

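The 10 genes described here let pyruvate into mitochondria and set the activity of the pyruvate dehydrogenase complex, and they were taken by gene symbol from the 34700 genes of the deposited table. They were the kinases Pdk1 (ENSRNOG00000001517), Pdk2 (ENSRNOG00000004172), Pdk3 (ENSRNOG00000012513) and Pdk4 (ENSRNOG00000009565), the phosphatases Pdp1 (ENSRNOG00000016180) and Pdp2 (ENSRNOG00000012343), the E1 subunits Pdha1 (ENSRNOG00000025383) and Pdhb (ENSRNOG00000007895), and the carriers Mpc1 (ENSRNOG00000012415) and Mpc2 (ENSRNOG00000003150). Left ventricular RNA was sequenced from 12 male Sprague-Dawley rats, 3 in each of 4 groups, which were 8 weeks old at the start. Sham rats had the suture passed without ligation and HF rats had the left anterior descending coronary artery ligated. The authors describe sedentary Sham and HF rats in their exercise study, and Sham and HF rats given water by gavage in their BAIBA study. The labels call the HF rats sedentary and do not say from which study the Sham and HF rats came or whether they had gavage. HFE rats were ligated and were trained on a treadmill at 50 to 60% of their maximum, in sessions of 60 min on 5 days of the week, for 8 weeks. BAIBA rats were ligated and were given BAIBA (β-aminoisobutyric acid, a small molecule that muscle releases during exercise) by gavage at 75 mg/kg/day for 8 weeks. Ligated rats were assigned to groups by ejection fraction 4 weeks after surgery, and hearts were taken 12 weeks after surgery. The tissue was taken from the ventricle's anterior wall, given for the HF and BAIBA groups as the area around the infarct, and a trained or BAIBA-treated group without ligation was not analysed here. In such bulk tissue scar and surviving muscle are mixed, and fewer cells of a type and less RNA per cell cannot be told apart.

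Pyruvate made from glucose or lactate crosses the inner mitochondrial membrane through a carrier built from Mpc1 and Mpc2. The pyruvate dehydrogenase complex then turns it into acetyl-CoA, the fuel of the citric acid cycle, and its E1 enzyme is assembled from the alpha subunit Pdha1 and the beta subunit Pdhb. The Pdk kinases phosphorylate E1 alpha and switch the complex off, and the Pdp phosphatases switch it on again. Pdk4 is the isoenzyme known for its induction by fasting, fatty acids, glucocorticoids and PPAR or FoxO transcription factors, so the heart's choice between glucose and fat is often read from it.

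The promoter stretches of 3 genes are shown because Pdk4 was the member that varied most between rats, while Pdk2 and Pdhb were correlated across rats with TMM scaling of the libraries, though not with the 2 other scalings tried. Each line holds the 250 bases before the RefSeq transcription start in GRCr8, read 5′ to 3′ on the gene's strand. The stretch lies at chr4:34568330-34568579 on the minus strand for Pdk4, at chr10:80483913-80484162 on the minus strand for Pdk2 and at chr15:19182539-19182788 on the plus strand for Pdhb. Capitals mark motif matches.
Pdk4: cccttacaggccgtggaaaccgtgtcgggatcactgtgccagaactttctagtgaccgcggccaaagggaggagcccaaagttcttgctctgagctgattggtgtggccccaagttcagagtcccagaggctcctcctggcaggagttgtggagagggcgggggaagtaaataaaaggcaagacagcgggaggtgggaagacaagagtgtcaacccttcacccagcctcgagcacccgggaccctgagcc
Pdk2: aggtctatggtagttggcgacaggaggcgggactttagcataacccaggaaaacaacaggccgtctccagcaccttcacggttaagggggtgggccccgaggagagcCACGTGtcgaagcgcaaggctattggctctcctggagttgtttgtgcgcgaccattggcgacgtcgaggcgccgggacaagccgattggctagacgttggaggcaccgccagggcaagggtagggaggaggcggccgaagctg
Pdhb: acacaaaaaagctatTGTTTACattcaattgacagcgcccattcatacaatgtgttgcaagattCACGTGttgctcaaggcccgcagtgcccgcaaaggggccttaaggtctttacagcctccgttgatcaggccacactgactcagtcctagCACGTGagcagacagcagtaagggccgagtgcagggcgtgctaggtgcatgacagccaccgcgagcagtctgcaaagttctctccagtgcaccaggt
RefSeq gave such a stretch for 8 of the 10 members, all except Pdp1 and Pdp2. The 4 motifs searched on both strands were the forkhead (FoxO) core GTAAACA, the nuclear receptor half-site AGGTCA, the glucocorticoid receptor half-site AGAACA and the hypoxia response core ACGTG. Pdk4 held none of these letters in this window, which says nothing of sites elsewhere. Pdk2 held CACGTG from base -143 to -138, counted from the start, and this palindrome gives ACGTG on both strands. Pdhb held CACGTG at bases -186 to -181 and -97 to -92, and the forkhead core on the opposite strand at bases -235 to -229. ACGTG occurred in 3 of the 8 member stretches (Pdk2, Pdhb and Pdk3) and in 16.946% of 27457 promoter stretches of that length. The forkhead core occurred in 1 of 8 members against 3.249%, and the half-sites AGGTCA and AGAACA in 0 of 8 against 13.661% and 17.081%. The Pdk4 stretch held 59.2% GC and 9 CpG dinucleotides, compared with 62.0% and 20 in Pdk2, 53.2% and 10 in Pdhb, and medians of 52% and 6 over all promoter stretches.

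Levels are given as FPKM, which divide the counts by gene length and library total, so that genes can be set beside each other. Library totals were 14812541 to 19732588 counts, all 10 members passed the filter on low counts in every comparison, and 27 to 90 counts per rat (the Pdk3 range) were the fewest behind any member. Mpc1, with 374 to 454 FPKM over the 12 rats, was the most abundant member in every rat except HF replicate 3, where Pdk4 was higher. Mpc2 followed with 222 to 402 FPKM, Pdha1 with 187 to 262 FPKM, Pdk2 with 164 to 219 FPKM and Pdhb with 164 to 195 FPKM. Pdk1 reached 84.4 to 135 FPKM, Pdp1 31.8 to 51.9 FPKM and Pdp2 7.02 to 16.5 FPKM, and Pdk3 stayed between 0.728 and 2.42 FPKM. Pdk4 spanned 23.2 to 431 FPKM, from below Pdp1 to above Mpc1 in different rats. The plot of FPKM by rat shows this order.

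**Figure D1:**
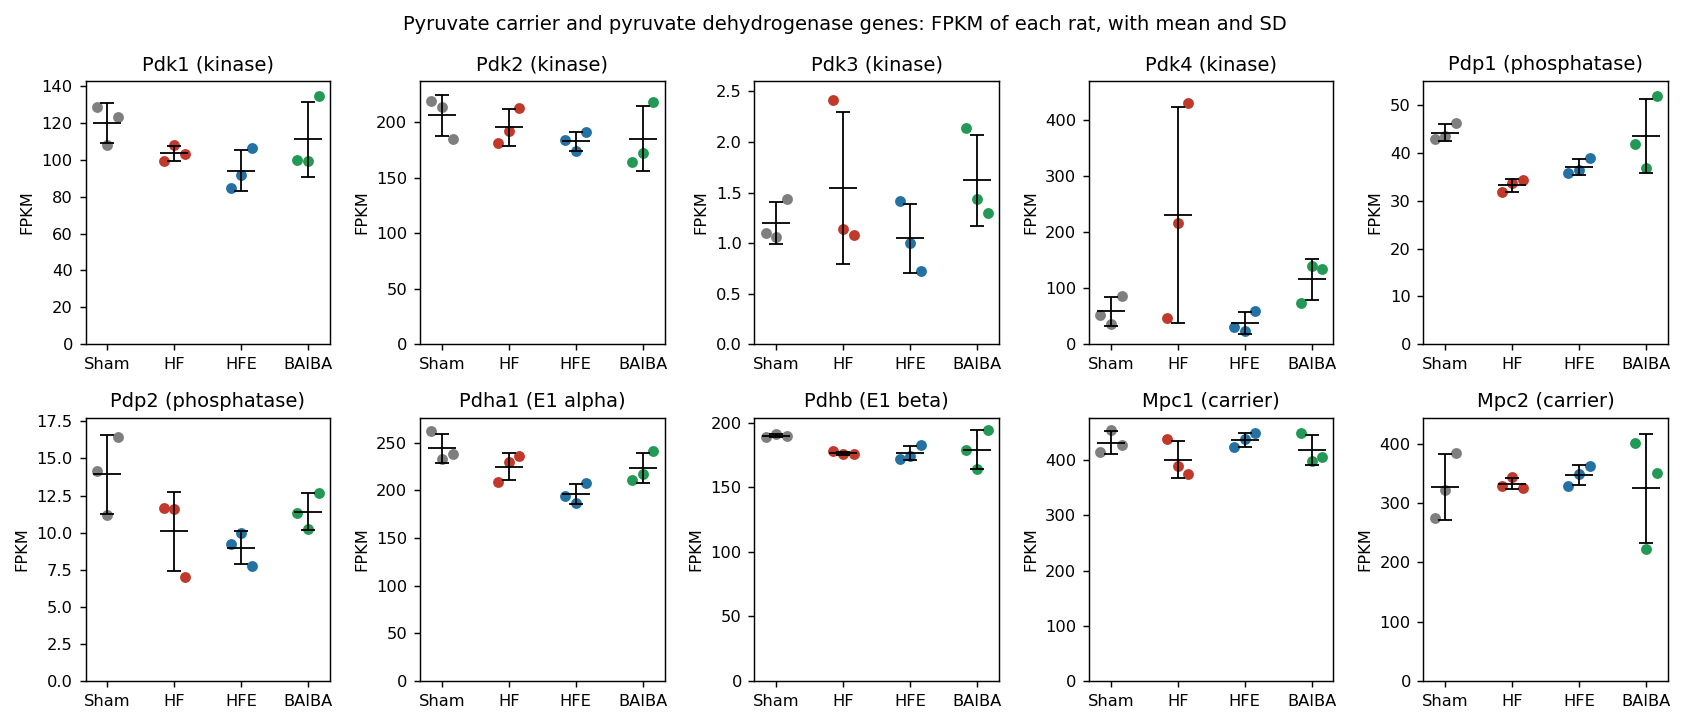
FPKM (y axis, from 0) of each of the 10 genes in each rat (points, 3 per group), with the group mean (horizontal mark) and SD (bars). Pdk4 spreads from 46.2 to 431 FPKM within the HF group alone, while the 3 HF rats of Pdp1 lie between 31.8 and 34.4 FPKM, below the Sham rats at 42.9 to 46.3 FPKM.

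No member was differentially expressed in any of 7 comparisons by edgeR's quasi-likelihood test, where a call needed a log2 fold change beyond 1 in either direction as well as an adjusted p (Benjamini-Hochberg) below 0.05. Over all genes tested, the same rule called 0% in HF against Sham, 0% in HFE against HF, 0% in BAIBA against HF, 0.0808% in BAIBA against HFE, 0.0402% in BAIBA against Sham, 0% in HFE against Sham and 0% in the 9 ligated rats against Sham. DESeq2 also called 0 members in each comparison, where it called 0.154%, 0.155%, 0.181%, 1.07%, 0.425%, 0.467% and 0.0631% of all genes in the same order. At an unadjusted p under 0.05, 4 of 10 members passed in HFE against Sham (Pdk1, Pdp1, Pdp2 and Pdha1, all lower), where 11.2% of all genes did. The other comparisons each had 1 of 10, beside 6% of all genes in HF against Sham (Pdp1), 7.62% in HFE against HF (Pdk4), 5.55% in BAIBA against HF (Pdp1), 9.57% in BAIBA against HFE (Pdk4), 7.41% in BAIBA against Sham (Pdk4) and 6.35% in ligated against Sham (Pdp2). Comparisons that share the HF, HFE or Sham rats are not independent of each other. With 3 rats against 3, the two-sided exact permutation test of a single gene cannot give a p below 0.1.

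**Figure D2:**
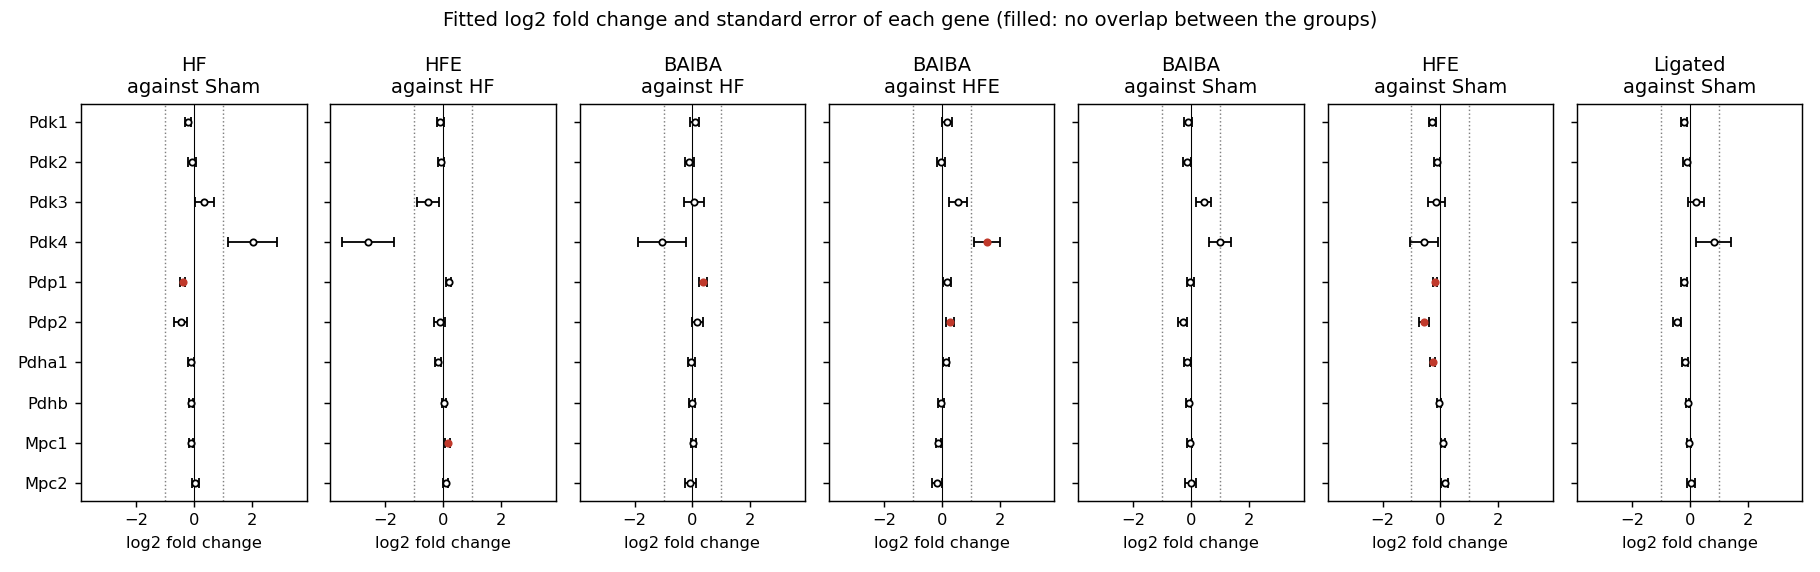
Fitted log2 fold change (x axis, first group against second) of each gene (y axis) in 7 comparisons, with standard errors as bars and dotted lines at -1 and 1. Filled points mark genes whose CPM values do not overlap between the groups. Pdk4 alone lies beyond 1 in size, in 5 comparisons, and its standard errors run from 0.39 to 0.90.

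Pdk4 had the widest swings of the 10 genes. It measured 52.3, 37.0 and 86.3 FPKM in the Sham rats, 46.2, 216 and 431 FPKM in the HF rats, 30.6, 23.2 and 59.9 FPKM in the HFE rats, and 74.0, 139.7 and 133.5 FPKM in the BAIBA rats. HF replicate 1 lay within the Sham range and HF replicates 2 and 3 lay above every rat of the other groups. The group means ran from HF (231 ± 193 FPKM, SD, n = 3) through BAIBA (116 ± 36.3 FPKM) and Sham (58.5 ± 25.2 FPKM) to HFE (37.9 ± 19.4 FPKM), and neighbours in this order overlapped.

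The fitted log2 fold change of Pdk4 was 2.04 (SE 0.85, edgeR adjusted p = 0.805) in HF against Sham. It was -2.61 (SE 0.90, edgeR adjusted p = 0.634) in HFE against HF and -1.04 (SE 0.82, edgeR adjusted p = 0.867) in BAIBA against HF. All BAIBA rats lay within the HF range of 46.2 to 431 FPKM. HFE replicate 3 also lay within it, while HFE replicates 1 and 2, at 30.6 and 23.2 FPKM, lay below every HF rat. HF replicate 3 set much of the size of the fold changes that involve HF. Without it the values were 1.19, -1.75 and -0.18, and without HF replicate 1 they were 2.53, -3.10 and -1.53. BAIBA and HFE rats did not overlap, at 1.57 (SE 0.45, edgeR adjusted p = 0.351, exact permutation p = 0.1), where 15.6% of all genes had groups without overlap. BAIBA against Sham gave 1.00 (SE 0.39, edgeR adjusted p = 0.656) and HFE against Sham -0.57 (SE 0.50, edgeR adjusted p = 0.721), both with overlap. The HFE against Sham value ran from -1.08 without HFE replicate 3 to -0.19 without Sham replicate 3.

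The spread of Pdk4 within groups was itself unusual. The pooled within-group SD of its log2 CPM (counts scaled to a common library total by TMM) was 1.02, at the 96.2 percentile of 15617 genes. Of the 902 genes at least as abundant as Pdk4 in counts, 0 had as large a within-group SD and 0 had as wide a range among the HF rats. Its CPM spanned 10.3-fold among the HF rats and 18.6-fold among all 12. Mpc1, with a within-group SD of 0.059, stood at the 0.583 percentile and Pdhb, with 0.078, at the 3.12 percentile.

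Marker sums beside the Pdk4 values differed among the HF rats. HF replicate 3, with the highest Pdk4, had the group's highest sums of 4 atrial markers (29.1 CPM, against 2.29 and 3.64), of 4 macrophage markers (129 CPM, against 64.4 and 85.5) and of 4 erythroid markers (1120 CPM, against 497 and 966). HF replicate 1, with the lowest Pdk4, had the highest sum of 4 adipocyte markers (23.3 CPM, against 0.309 and 1.22). The sum of 8 cardiomyocyte markers was 33142, 35158 and 33745 CPM in the HF rats in order and did not follow Pdk4. The sum of 6 fibroblast markers was 1091, 1394 and 1606 CPM in the HF rats and rose in the same order as Pdk4. Over 12 rats with group means removed, log2 Pdk4 had r = 0.68 with the erythroid sum, 0.39 with the macrophage sum, 0.36 with the endothelial sum, 0.32 with the atrial sum, 0.30 with the cardiomyocyte sum, 0.19 with the fibroblast sum, -0.22 with the skeletal muscle sum and -0.28 with the adipocyte sum. No marker was at 0 in all rats, and the part of these cells in the Pdk4 values was not tested.

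Pdk2, the most widely expressed of the kinases, was the leading kinase transcript in 10 of the 12 rats. It measured 219, 214 and 185 FPKM in Sham, 181, 192 and 213 FPKM in HF, 184, 174 and 191 FPKM in HFE and 164, 173 and 219 FPKM in BAIBA. All groups overlapped, and its log2 fold changes ran from -0.15 (SE 0.14) in BAIBA against Sham to -0.03 (SE 0.13) in BAIBA against HFE.

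Pdk1, a kinase known as a target of the hypoxia factor HIF-1, measured 129, 108 and 123 FPKM in Sham, 99.4, 107.8 and 103 FPKM in HF, 84.4, 91.8 and 106 FPKM in HFE and 99.6, 99.4 and 135 FPKM in BAIBA. On the FPKM scale every HF and HFE rat lay below every Sham rat, by a margin of 107.8 against 108.0 FPKM for HF, but on the TMM-scaled CPM the groups overlapped. Without overlap on the FPKM scale were 11.1% of all genes in HF against Sham and 17.8% in HFE against Sham. The largest log2 fold change of Pdk1 was -0.29 (SE 0.12, edgeR adjusted p = 0.429) in HFE against Sham. Among 8 genes listed as hypoxia targets, Slc2a1, the glucose transporter GLUT1, had the lowest p. It measured 26.1, 22.8 and 19.7 CPM in Sham and 13.6 to 17.3 CPM in the 9 ligated rats without overlap, at a log2 fold change of -0.57 (SE 0.10, edgeR adjusted p = 0.438, exact permutation p = 0.00455, the smallest this design can give). Groups without overlap were found for 1.02% of all genes in that comparison.

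Pdk3, a kinase usually abundant outside the heart, had 1.10, 1.06 and 1.44 FPKM in Sham, 2.42, 1.14 and 1.08 FPKM in HF, 1.41, 1.00 and 0.728 FPKM in HFE and 2.14, 1.43 and 1.30 FPKM in BAIBA. Every comparison overlapped, and its log2 fold changes had standard errors of 0.27 to 0.38. The largest was 0.58 in BAIBA against HFE (edgeR adjusted p = 0.625), beside a pooled within-group SD of 0.40 in log2 CPM.

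Set against each other, the 4 kinases formed a mixture whose make-up followed Pdk4. Pdk4 made up 15.03 ± 6.01% of the summed kinase FPKM in Sham (SD, n = 3 in each group), 37.8 ± 22.0% in HF, 11.6 ± 4.5% in HFE and 27.6 ± 6.0% in BAIBA. Pdk2 made up 53.6 ± 6.4%, 40.2 ± 13.5%, 58.2 ± 4.2% and 44.96 ± 3.27%, and Pdk1 31.0 ± 1.0%, 21.6 ± 8.2%, 29.8 ± 1.8% and 27.0 ± 2.7%, in the same order. The ratio of Pdk4 to Pdk2 was between 0.133 and 0.466 in Sham and HFE, 0.255 to 2.02 in HF and 0.450 to 0.809 in BAIBA. Summed kinase FPKM without Pdk4 was 327 ± 19.97 in Sham, 300.5 ± 17.5 in HF, 278.0 ± 17.5 in HFE and 298.0 ± 49.1 in BAIBA.

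The ratio of summed kinase to summed phosphatase FPKM was 6.64 ± 0.36 in Sham (SD, n = 3 in each group), 12.4 ± 5.3 in HF, 6.85 ± 0.73 in HFE and 7.58 ± 1.21 in BAIBA. All 3 HF rats, at 7.57 to 18.1, lay above the Sham rats at 6.32 to 7.04 and overlapped the HFE rats (6.24 to 7.66) and the BAIBA rats (6.38 to 8.80). Without Pdk4 the ratio was 5.66 ± 0.63, 6.94 ± 0.63, 6.03 ± 0.32 and 5.43 ± 0.42, and the HF rats at 6.51 to 7.67 lay above the Sham rats at 4.94 to 6.12. There the divisor differed, with summed phosphatase at 43.4 FPKM in HF and 58.1 FPKM in Sham, while the kinase sum without Pdk4 was lower in HF. The ratios are of transcripts and not of enzyme, and they are given as a description without a test.

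**Figure D3:**
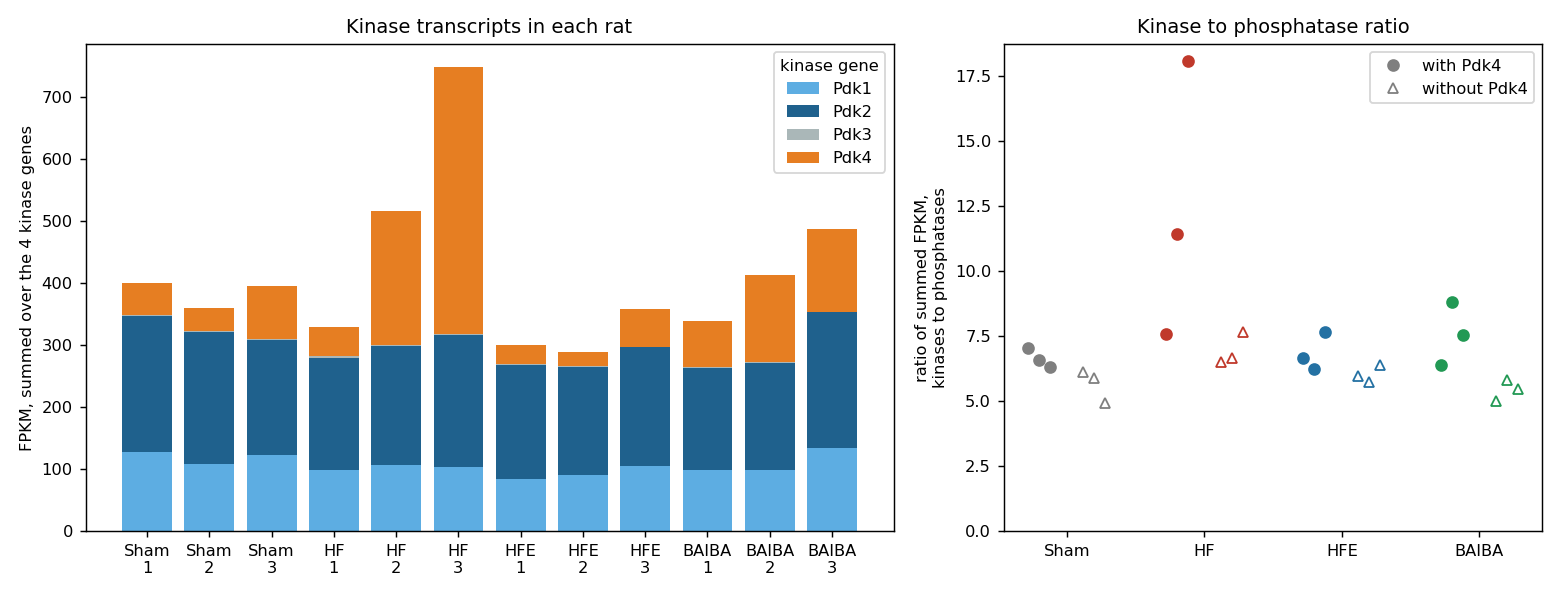
Left, FPKM of the 4 kinase genes stacked for each rat (y axis, summed FPKM). Right, the ratio of summed kinase to summed phosphatase FPKM for each rat (y axis), with Pdk4 (filled circles) and without it (open triangles). Pdk4 makes up 57.6% of the tallest bar, HF replicate 3, and 14.05% of that of HF replicate 1.

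Pdp1, the calcium-stimulated phosphatase of muscle, separated HF from Sham without overlap. It measured 42.9, 43.5 and 46.3 FPKM in Sham, 31.8, 33.6 and 34.4 FPKM in HF, 35.8, 36.4 and 39.0 FPKM in HFE and 42.0, 36.8 and 51.9 FPKM in BAIBA. The log2 fold change in HF against Sham was -0.39 (SE 0.09, edgeR p = 0.0029, adjusted p = 0.737, exact permutation p = 0.1), where 11.7% of all genes did not overlap. DESeq2's adjusted p was 0.0967, and the value stayed between -0.45 and -0.32 under every alternative run. The BAIBA rats lay above every HF rat, at 0.36 (SE 0.14, edgeR adjusted p = 0.851), where 11.5% of all genes did not overlap, and without BAIBA replicate 3 the value was 0.21. The HFE rats lay below every Sham rat, at -0.19 (SE 0.08, edgeR adjusted p = 0.410), where 17.8% of all genes did not overlap.

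Pdp1 was the only member whose HF rats lay apart from the Sham rats on the CPM scale. The cardiomyocyte marker sum was also lower, at 39869 to 42859 CPM in Sham against 33142 to 35158 CPM in HF, and its part in the Pdp1 difference was not tested. Myh6 was the largest part of the sum, at 9135 to 19679 CPM over the 12 rats. All 8 markers had log2 fold changes below 0 in HF against Sham, with a median of only -0.05. With group means removed, Pdp1 and that sum had r = 0.39 over 12 rats.

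Pdp2, the phosphatase that does not depend on calcium, measured 14.2, 11.2 and 16.5 FPKM in Sham, 11.7, 11.6 and 7.02 FPKM in HF, 9.22, 9.996 and 7.76 FPKM in HFE and 11.3, 10.2 and 12.7 FPKM in BAIBA. All HFE rats lay below the Sham rats, at a log2 fold change of -0.57 (SE 0.16, edgeR p = 0.0080, adjusted p = 0.298, exact permutation p = 0.1), where 17.8% of all genes did not overlap. The 9 ligated rats together stood at -0.44 relative to Sham (SE 0.15, edgeR p = 0.0118, adjusted p = 0.754, exact permutation p = 0.0364), with overlap. BAIBA rats lay above every HFE rat, at 0.29 (SE 0.14, edgeR adjusted p = 0.561), where 15.6% of all genes did not overlap. Summed phosphatase FPKM was 58.1 ± 4.1 in Sham, 43.4 ± 1.9 in HF, 46.1 ± 0.9 in HFE and 55.0 ± 8.9 in BAIBA (SD, n = 3), and the lowest mean was that of HF.

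Pdha1, the E1 alpha subunit that carries the phosphorylated serines, measured 262, 233 and 238 FPKM in Sham, 209, 229.9 and 236 FPKM in HF, 194, 187 and 208 FPKM in HFE and 212, 217 and 242 FPKM in BAIBA. The HFE rats lay below every Sham rat on either scale, at a log2 fold change of -0.26 (SE 0.09, edgeR p = 0.0156, adjusted p = 0.352, exact permutation p = 0.1), where 17.8% of all genes did not overlap on each scale. On the FPKM scale the HFE rats lay below all rats of the other 3 groups, while on the CPM scale they overlapped HF and BAIBA. Without overlap on the FPKM scale were 13.4% of all genes in HFE against HF and 15.5% in BAIBA against HFE.

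Pdhb, the E1 beta subunit, was among the steadiest genes. It measured 189.3, 191.3 and 189.6 FPKM in Sham, 177.9, 175.8 and 175.5 FPKM in HF, 172, 174 and 183 FPKM in HFE and 179, 164 and 195 FPKM in BAIBA. HF and HFE rats lay below every Sham rat on the FPKM scale and overlapped on the CPM scale, where the log2 fold changes were -0.09 (SE 0.08) and -0.05 (SE 0.07). The scale decided more than 1 such reading. On the CPM scale the groups did not overlap for 1, 1, 1, 2, 0, 3 and 0 of the 10 members in the 7 comparisons in the order above, and on the FPKM scale for 3, 2, 1, 3, 0, 5 and 0. Over all genes the CPM scale gave 11.7%, 14.3%, 11.5%, 15.6%, 12.7%, 17.8% and 1.02%, and the FPKM scale gave 11.1%, 13.4%, 10.7%, 15.5%, 12.2%, 17.8% and 1.06%.

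No difference in either pyruvate carrier subunit passed the test. Mpc1 measured 414, 454 and 428 FPKM in Sham, 439, 389.8 and 374 FPKM in HF, 424, 438 and 449.8 FPKM in HFE and 449.4, 399.6 and 405 FPKM in BAIBA. On the CPM scale the HFE rats lay above every HF rat, at a log2 fold change of 0.16 (SE 0.08, edgeR adjusted p = 0.661), where 14.3% of all genes did not overlap, and on the FPKM scale they overlapped. With group means removed Mpc1 had r = -0.85 with the atrial marker sum over 12 rats. Among the relations of members with marker sums this was one of the largest in size, it carries no test, and the within-group SD of Mpc1 was only 0.059 in log2 CPM. The atrial sum was 51.7, 13.8 and 65.6 CPM in Sham, 47.4, 2.36 and 1.26 CPM in HFE and 1.99 to 3.65 CPM in BAIBA, and its part was not tested.

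Mpc2 measured 275, 323 and 385 FPKM in Sham, 329, 344 and 327 FPKM in HF, 330.0, 350.1 and 363 FPKM in HFE and 402, 222 and 351 FPKM in BAIBA. BAIBA replicate 2 lay below the other 11 rats. That rat also had the lowest summed level of the skeletal muscle markers in the table (102 CPM for 3 of 5 listed genes, against 321 to 887 CPM in the other 11), and over 12 rats with group means removed the sum and Mpc2 had r = 0.88. This r was the largest in size of any member with a marker sum, and it carries no test. Nearly all of the sum was Acta1, at 92.3 to 881 CPM, against at most 14.8 CPM for Tnnt3 and 6.46 CPM for Mylpf. The part of skeletal muscle cells in the Mpc2 values was not tested. Rps21, a ribosomal protein gene and the one most like Mpc2 in pattern (r = 0.95 over 12 rats), was also lowest in BAIBA replicate 2, at 9.86 CPM against 16.2 to 44.1 CPM. The ratio of Mpc1 to Mpc2 was 1.34 ± 0.21 in Sham, 1.20 ± 0.11 in HF, 1.26 ± 0.02 in HFE and 1.36 ± 0.38 in BAIBA (SD, n = 3).

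By adjusted p, some members varied together among rats of the same group with TMM scaling, but not on FPKM or with library size alone. After group means were removed from log2 CPM, 10 of 45 member pairs were correlated over the 12 rats (Pearson, within-group exact permutation, adjusted p from 0.0347 to 0.0486 over 45 pairs). Of these, 7 were positive and joined Pdhb, Pdha1, Pdk1, Pdk2 and Pdp1, with r from 0.79 for Pdha1 and Pdhb to 0.93 for Pdhb and Pdp1. Another 3 were negative and set Pdk3 against Pdha1 (r = -0.85), Pdhb (-0.81) and Pdk2 (-0.79). At 27 to 90 counts per rat for Pdk3, counting error was not separated from the spread between rats. Spearman's rho gave 7 pairs. Leaving out the 2 rats farthest from the median of the first gene of each pair left r between 0.59 and 0.89 in size. These rats were picked before group means were removed, and rats extreme only in the second gene stayed in.

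These correlations depended on how libraries were scaled. With log2(FPKM + 0.1), or with library size as the only scaling, 0 pairs had an adjusted p under 0.05 (lowest adjusted p = 0.278 in each permutation test) and 7 had an unadjusted p under 0.05, against 15 by the TMM scaling. Leaving out Sham replicate 2 gave 11 pairs and leaving out any other single rat gave 0, with 432 assignments left to permute. Between 0.0576% and 2.99% of 15617 genes were at least as correlated with one of the paired genes. The cardiomyocyte marker sum, of which Myh6 was the largest part, had r = 0.66 with Pdk1, 0.63 with Pdha1, 0.62 with Pdhb, 0.58 with Pdk2 and -0.68 with Pdk3 on the same scale. The part of this sum in the pairs was not tested.

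**Figure D4:**
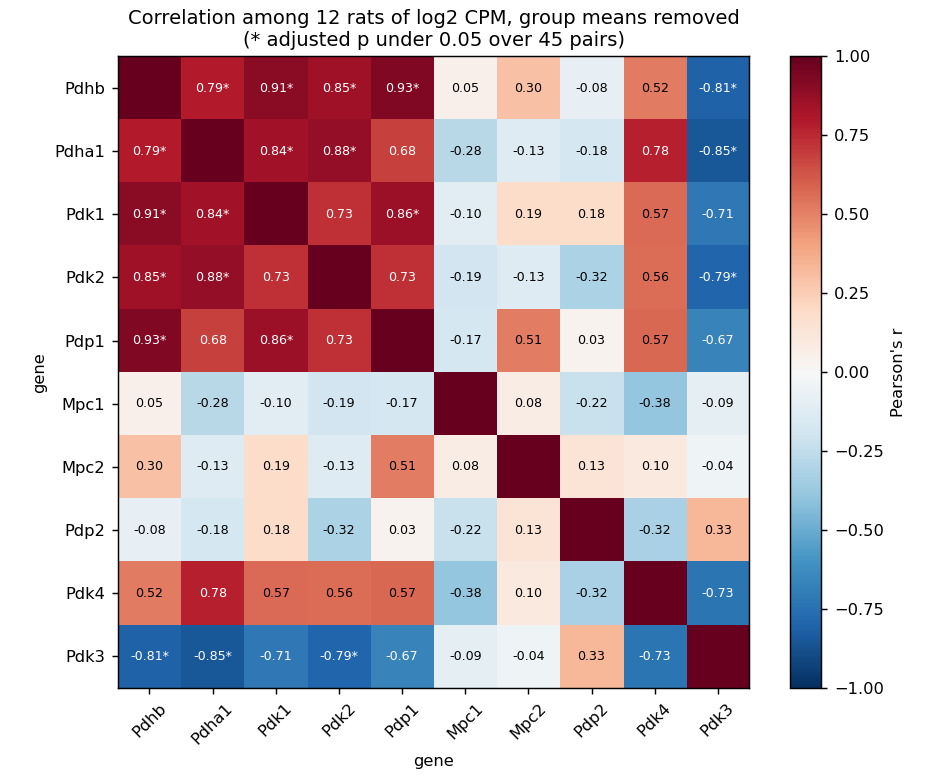
Pearson's r for each pair of the 10 genes (x and y axes) over 12 rats, from log2 CPM with group means removed. Red is positive, blue is negative and asterisks mark adjusted p under 0.05 over 45 pairs. A block of 5 genes from Pdhb to Pdp1 is red, the Pdk3 row is blue against it, and no pair with Pdk4 has an asterisk.

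Pdk4 was not correlated with any other member at this threshold (r from -0.73 to 0.78, lowest adjusted p = 0.0752, exact permutation). By likeness of log2 CPM over 12 rats among 12717 genes with a symbol, the closest to Pdk4 were Por, the reductase that serves cytochrome P450 enzymes (r = 0.93, rho = 0.92), Clcn3, a chloride transporter of intracellular vesicles (r = 0.91, rho = 0.87), and Gpam, which starts glycerolipid synthesis in mitochondria (r = 0.90, rho = 0.89). Gpam measured 35.2, 85.9 and 83.1 CPM in HF, 33.1, 29.8 and 40.6 CPM in HFE, 44.3, 48.0 and 58.9 CPM in BAIBA and 52.8, 43.0 and 58.0 CPM in Sham. The closest to the other members named were Neo1 for Pdk1 (r = 0.91), Ptk2b for Pdk3 (0.94), Acsl1 for Pdp1 (0.90), Pcmtd1 for Pdp2 (0.87), Dcaf8 for Pdha1 (0.98), Lman1 for Pdhb (0.93) and Sppl3 for Mpc1 (0.92). These are the extremes of many comparisons and carry no test.

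A list of 13 regulators and co-targets of Pdk4 in fatty acid use was set beside it. Across 12 rats with group means removed, 12 of the 13 had a positive r with Pdk4, as did 49.2% of all genes. The lowest of the positive values, 0.13 for Ppargc1a, was reached by 38.1% of all genes. Cpt1a, the carnitine transferase that admits long-chain fatty acids to mitochondria, had r = 0.90 (exact within-group permutation p = 0.0015, adjusted over the 13 relations 0.0201) and rho = 0.91 (adjusted p = 0.0401), and r = 0.85 without the 2 rats farthest from the Pdk4 median. On the FPKM scale its r was 0.84. It measured 62.0, 92.0 and 93.0 CPM in HF, 58.6, 47.7 and 67.1 CPM in HFE, 72.3, 92.8 and 83.4 CPM in BAIBA and 74.6, 75.1 and 80.5 CPM in Sham. The HF rat with low Pdk4 was the HF rat with low Cpt1a.

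The next highest were Foxo1 (r = 0.78), a FoxO factor, Ucp3 (0.77), a mitochondrial carrier induced by fatty acids, Acot2 (0.75), a mitochondrial thioesterase, and Angptl4 (0.71), a secreted inhibitor of lipoprotein lipase, with adjusted p from 0.0702 to 0.158 by the same permutation. Without the 2 farthest rats Ucp3 had r = 0.39 and Angptl4 r = 0.17. Acot1, a cytosolic thioesterase, was the exception with r = -0.57 (adjusted p = 0.0903 by permutation). For 0.237% of all genes r with Pdk4 was at least as high as that of Cpt1a.

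**Figure D5:**
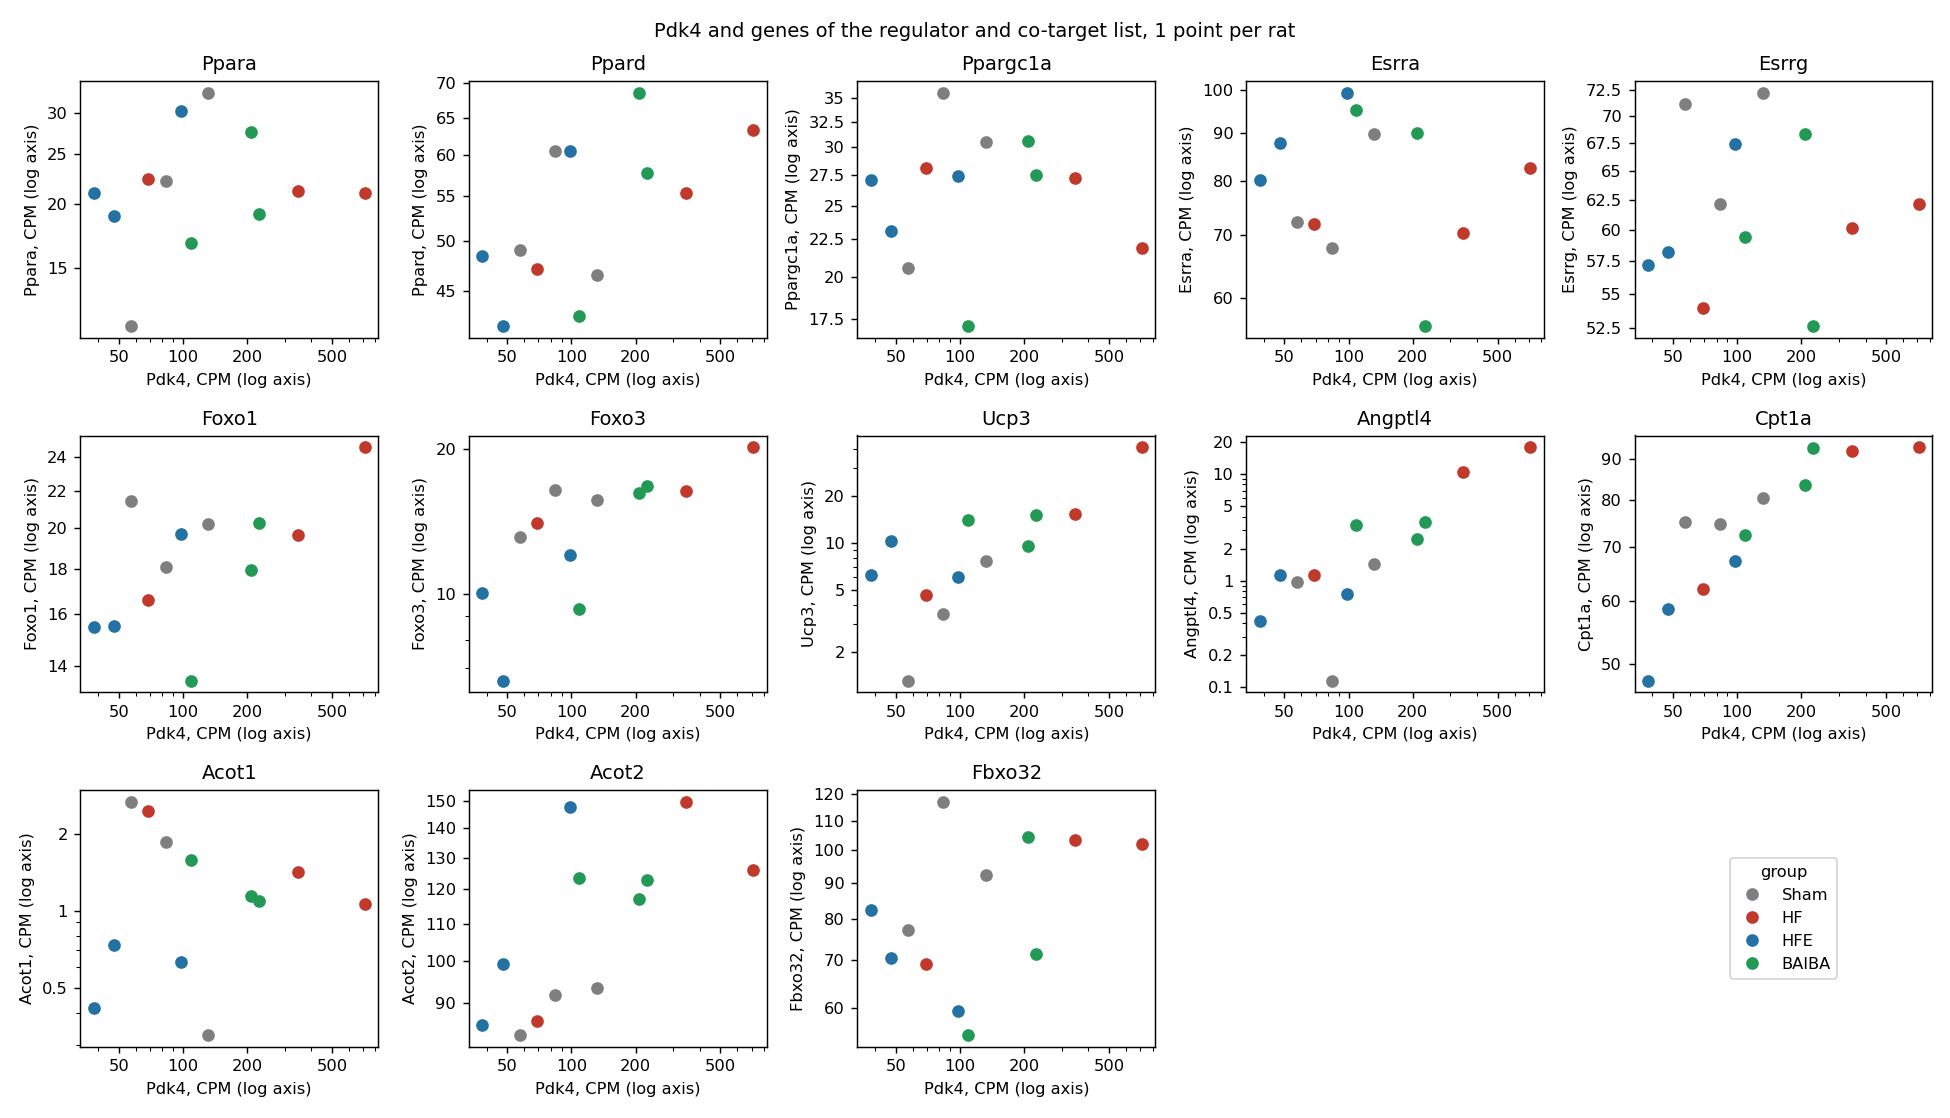
Level of each of 13 listed genes (y axis, CPM, log scale) against Pdk4 (x axis, CPM, log scale), 1 point per rat, coloured by group. The rats with more Pdk4 had more Cpt1a, from 47.7 CPM in HFE replicate 2 to 93.0 CPM in HF replicate 3, while the Acot1 points have no such order.

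None of these 13 genes was called in any comparison by edgeR's test, at the thresholds given above. DESeq2 called 1 of them, Angptl4, in HFE against HF (log2 fold change -3.67, DESeq2 adjusted p = 0.00171) and in BAIBA against HFE (2.01, DESeq2 adjusted p = 0.00709), where it called 0.155% and 1.07% of all genes. At an unadjusted p under 0.05, 4 of 13 were lower in HFE than in HF (Foxo3, Angptl4, Cpt1a and Acot1) and 0 were higher, where 3.29% of all genes were lower. The list's median log2 fold change there was -0.26, against -0.01 over all genes. In BAIBA against HFE, 4 of 13 were higher (Ucp3, Angptl4, Cpt1a and Acot1) and 0 were lower, where 4.68% of all genes were higher, and the medians were 0.13 and 0.00. Both comparisons use the same HFE rats. In BAIBA against HF 0 of 13 passed in either direction, and in HF against Sham 1 was higher (Angptl4) and 1 lower (Esrrg), beside 2.47% and 3.53% of all genes. In BAIBA against Sham 3 were higher (Ucp3, Angptl4 and Acot2), beside 4.13% of all genes, and in HFE against Sham 3 were lower (Foxo3, Cpt1a and Fbxo32), beside 5.15%. In ligated against Sham 2 were higher (Ucp3 and Acot2), beside 2.84%. Apart from Angptl4, these names were given after their values were seen.

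Angptl4 had the lowest p of the list. It measured 1.14, 10.4 and 17.9 CPM in HF, 1.13, 0.416 and 0.757 CPM in HFE, 3.31, 3.52 and 2.47 CPM in BAIBA and 0.116, 0.976 and 1.44 CPM in Sham. The BAIBA rats lay above every HFE and every Sham rat, where 15.6% and 12.7% of all genes did not overlap. The log2 fold change in BAIBA against HFE was 2.00 (SE 0.39, edgeR adjusted p = 0.156, exact permutation p = 0.1). As with Pdk4, HF replicates 2 and 3 were the highest of the 12 rats and HF replicate 1 was not. HF replicate 1, at 1.14 CPM, lay close to HFE replicate 1, at 1.13 CPM. Levels were low, with no HFE or Sham rat above 1.44 CPM.

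Genes that work next to the 10 members were also uncalled in each comparison by edgeR's test. Of 9 further genes of the complex and its cofactors, 2 were lower in HFE than in Sham at an unadjusted p under 0.05, Dlat and Pdhx, where 5.15% of all genes were lower. Dlat, the E2 core that makes acetyl-CoA, measured 285, 295, and 306 CPM in HFE against 362, 326 and 378 CPM in Sham, at a log2 fold change of -0.26 (SE 0.08, edgeR adjusted p = 0.321). Pdha1 had -0.26 in the same rats.

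Of 14 genes for other fates of pyruvate, 3 were higher (Ldhb, Bsg and Me1) and 2 lower (Pc and Cs) in HFE than in Sham at that threshold, where 6.04% of all genes were higher and 5.15% lower, and the genes other than Pc were named after their values were seen. Pc, the carboxylase that turns pyruvate into oxaloacetate, measured 26.5, 32.1 and 35.8 CPM in HFE and 42.1, 49.1 and 47.0 CPM in Sham, without overlap, at a log2 fold change of -0.54 (SE 0.12, edgeR adjusted p = 0.214). In that comparison 17.8% of all genes did not overlap. Among 4 relatives that regulate branched-chain keto acid oxidation, Bckdk, the kinase most akin to the Pdk family, measured 96.7, 103 and 108 CPM in HF and 136, 127 and 122 CPM in Sham, at -0.33 (SE 0.09, edgeR adjusted p = 0.784). It was 1 of 3 relatives whose HF rats all lay below the Sham rats, as did those of 6.27% of all genes. At an unadjusted p under 0.05, 2 of the 4 were lower in HF, where 3.53% of all genes were lower. In HF against Sham the median log2 fold change was -0.09 over the 10 members, -0.08 over the complex genes, -0.03 over the pyruvate fates and 0.01 over all genes tested.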

How the data were processed

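The authors aligned paired-end reads from oligo(dT)-selected RNA with HISAT2, used StringTie to add genes missing from the annotation and counted reads by featureCounts. Versions, annotation and use of strand are not given in the sources used here, and the submitters' processing notes list mm9, a mouse build, although the gene identifiers are from rat. The deposited counts are raw, and the authors derived the deposited FPKM values from the same counts and the length of each gene.

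Tests were run in edgeR 4.0.16 under R 4.3.3 (TMM, filterByExpr, robust quasi-likelihood, no covariate) on the 2 groups compared. Ligated against Sham used all 12 rats, as the mean of the 3 ligated groups minus Sham. Standard errors were obtained as the size of each log2 fold change over the square root of its F statistic. CPM used TMM factors over 12 rats. Permutation tests were two-sided on log2(CPM + 0.1), over 20 assignments of 3 against 3 rats, 220 of 9 against 3, and 1296 within groups for correlations. Alternatives were DESeq2 1.42.0, RLE or library-size scaling, other filters and thresholds, limma 3.58.1 on log2(FPKM + 1) and log2(FPKM + 0.1), a fit of all rats, a replicate block and each rat left out. Procedures were tested on simulated data.

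Groups and replicate numbers come from the labels. Replicates were separate rats, and none of the pairs agreed within sampling noise (chi-square per degree of freedom 11.8 to 33.7). Members, gene lists and tests were chosen with earlier results of these data known. Besides the members, the gene with the lowest p of each list was named. In BAIBA against HFE, same-numbered rats deviated together (r from 0.118 to 0.224), although they are different animals. Promoters and gene symbols are RefSeq's (GRCr8), matched by symbol. Some items are not reported here.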

Additional observations from a re-analysis of the deposited data

How the results depend on the processing

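With adjusted p-values, no member passed both thresholds under any alternative run, in 1110 values for 70 member results. The sign changed in 46 values of 22 results. The changed values were at most 0.16 in size and the reported ones at most 0.36, for Pdk3 in HF against Sham, which was -0.05 without HF replicate 1. With an unadjusted p and no fold limit the count of members rose from 0 to 1 in HF against Sham, HFE against HF, BAIBA against HF, BAIBA against HFE, BAIBA against Sham and ligated against Sham, and to 4 in HFE against Sham. With the fold limit kept it was 1 (Pdk4) in HFE against HF, BAIBA against HFE and BAIBA against Sham. The 10 correlated pairs became 0 with log2(FPKM + 0.1) and 0 with library size only, and leaving out each rat gave 0 to 11 pairs (11 without Sham replicate 2, 0 without any other), where 432 assignments allow a smallest permutation p of 0.0023. The cause of these shifts was not tested. The replicate block left the count of called members at 0 in each comparison, so the pairing changed no call, and gave Pdk4 a log2 fold change of 1.61 in BAIBA against HFE (adjusted p = 0.290 by edgeR). In the other pairs of groups r between same-numbered rats ran from -0.079 to 0.125, both of these in BAIBA against HF. Pdk3 had the fewest counts, 27 to 90 per rat, and counting error was not separated there from the spread between rats. The log2 fold change of Pdk4 in HF against Sham ran from 1.19 to 2.53 as single rats were left out.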
